A study of Arabidopsis thaliana with 36 samples.

Results

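The genes described here are FLC (AT5G10140), FLM (also called MAF1, AT1G77080), MAF2 (AT5G65050), MAF3 (AT5G65060), MAF4 (AT5G65070), MAF5 (AT5G65080) and SVP (AT2G22540), MADS-box genes that delay flowering in Arabidopsis thaliana. They were taken by locus identifier from the count table that the authors made with the aligner STAR, as 7 of its 33602 genes, and their levels were read in all 36 RNA-seq libraries. All 7 passed the filter on low counts over the 36 libraries, which left 20263 genes for testing. MAF4 passed through the libraries of the accession Col-0, with 31 to 76 reads each, against 0 to 7 in those of the accession N14. In fits to N14 groups alone it was dropped.

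FLC and its close relatives FLM and MAF2 to MAF5 encode DNA-binding proteins that keep the flowering inducers FT and SOC1 low, and SVP encodes a more distant MADS-box protein that binds together with FLC and FLM at such targets. FLC is known for vernalization, in which weeks of cold lead to its silencing through VIN3 and Polycomb proteins, so that flowering waits until winter has passed. FRIGIDA (FRI) raises FLC before winter, the autonomous pathway lowers it, and Col-0 is known to carry a loss-of-function FRI allele.

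The study compared Col-0, described in the labels as intermediate in freezing tolerance, with N14, described as cold tolerant. The sources used here do not give the FRI and FLC alleles of N14. Every plant, controls included, had nights at 6 °C in its first week, then short days of 8 h light and then long days of 16 h light at 20 °C by day. For each accession there were 6 conditions: controls after 28 days of growth, 28-day plants moved to 4 °C for 3 days (a first cold, called priming), such plants after a further 7 days back at 20 °C (the lag), plants given a second cold of 3 days after the lag (triggering), controls after 35 days of growth, and 35-day plants given their first cold of 3 days. Each condition had 3 libraries per accession, from 3 independent experiments, so p-values measure the spread between pools of separately grown plants. A library came from a pool of 5 replicate rosette samples, and the sample descriptions give 15 rosettes for the 28-day control and primed pools and 4 rosettes for the later ones. In the cold chamber the light was also lower, 90 against 200 µE, and cold-treated plants were 3 days older than their controls, so the part of temperature cannot be told apart from that of light or those 3 days. The hour of harvest is not given.

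Libraries held between 17861514 and 31046237 counted reads. Levels are CPM, the reads of a gene scaled to the total of its library by TMM, given for experiments 1, 2 and 3 in that order, with means ± SD (n = 3). A change is given as log2 fold ± SE, tested by quasi-likelihood in edgeR, and a gene was called changed at a Benjamini-Hochberg adjusted p under 0.05 over all 20263 genes. In bulk rosettes, fewer cells that express a gene and less of its RNA per cell cannot be told apart. The label "rosette" was checked with markers. The 4 leaf markers (RBCS1A, LHCB1.3, CAB3 and RCA) summed to between 62120 and 98569 CPM in the control and lag libraries and to between 31086 and 67087 CPM at the end of cold, and 2 to 4 of these 4 genes fell in each cold comparison. The root markers RHD6 and WOX5 were at or near 0 in every group, with group means of at most 0.05 and 0.33 CPM. PYK10 fell in all 6 cold comparisons, while SCR was called higher in 1 (log2 0.54) and WOX5 lower in 1 (log2 -2.16). The 4 root markers summed to between 18.7 and 147 CPM. The 10 floral markers summed to between 1.06 and 2.56 CPM in all N14 libraries, to between 3.54 and 6.36 CPM in 28-day Col-0 and to between 19.6 and 28.7 CPM in every later Col-0 group. The part of these shifts in leaf, root and floral markers in the results below was not tested.

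The gene sequences set which reads can be told apart. MAF2 to MAF5 stand in a row on 1 strand of chromosome 5, and the first coding exon of FLC, FLM and MAF2 to MAF4, which encodes most of the MADS domain, is 185 bases long. These 185 bases are shown 5′ to 3′ for FLC and MAF2 to MAF5. FLM and SVP, whose first coding exon has 182 bases in SVP, are not shown. Capitals mark bases that differ from MAF2, counted from the start codon. MAF5, whose annotated first coding exon starts earlier, is read from a later in-frame ATG of that exon.
MAF2, chr5:25982415-25982599 (TAIR10.1, + strand): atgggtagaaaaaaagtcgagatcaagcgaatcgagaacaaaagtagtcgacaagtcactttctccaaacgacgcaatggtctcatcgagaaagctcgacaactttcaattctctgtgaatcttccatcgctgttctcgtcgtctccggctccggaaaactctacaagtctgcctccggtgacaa
MAF3, chr5:25987527-25987711 (TAIR10.1, + strand): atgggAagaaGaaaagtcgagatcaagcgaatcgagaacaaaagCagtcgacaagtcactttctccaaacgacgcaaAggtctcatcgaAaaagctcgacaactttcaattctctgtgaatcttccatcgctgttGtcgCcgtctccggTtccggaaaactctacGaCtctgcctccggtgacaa
MAF4, chr5:25992310-25992494 (TAIR10.1, + strand): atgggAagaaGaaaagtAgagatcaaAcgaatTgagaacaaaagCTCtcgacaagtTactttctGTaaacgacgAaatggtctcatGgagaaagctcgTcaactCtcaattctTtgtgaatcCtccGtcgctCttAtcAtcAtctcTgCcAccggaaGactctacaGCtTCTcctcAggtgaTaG
MAF5, chr5:25997671-25997855 (TAIR10.1, + strand): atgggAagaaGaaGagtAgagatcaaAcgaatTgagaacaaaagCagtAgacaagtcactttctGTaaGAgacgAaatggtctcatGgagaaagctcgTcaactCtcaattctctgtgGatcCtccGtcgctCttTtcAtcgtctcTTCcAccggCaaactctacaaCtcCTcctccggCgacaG
FLC, chr5:3179155-3179339 (TAIR10.1, - strand): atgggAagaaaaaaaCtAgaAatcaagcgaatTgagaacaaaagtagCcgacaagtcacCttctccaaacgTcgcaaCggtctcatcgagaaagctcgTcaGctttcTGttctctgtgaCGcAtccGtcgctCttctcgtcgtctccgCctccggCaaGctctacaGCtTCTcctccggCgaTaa

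Over these 185 bases MAF3 differed from MAF2 at 10 positions, FLC at 28, MAF5 at 32 and MAF4 at 34. MAF4 and MAF5 differed from each other at 19 positions. FLM, on chromosome 1 at chr1:28955483-28960234, differed from MAF2 at 17. Of the 50-base runs in the annotated exons, 2.46% in MAF3 and 0.280% in FLM occurred elsewhere among the annotated transcripts, and none did in FLC, MAF2, MAF4, MAF5 or SVP. Reads of all libraries had been assigned to TAIR10, which is the Col-0 genome, per the submitters' processing notes, and the effect of N14 sequence differences on the counts was not tested. FLC is overlapped on the other strand by AT5G01675, an antisense long non-coding RNA gene of TAIR10.1 that is no row of the table. The sources do not say if reads were counted by strand, so sense and antisense reads at FLC cannot be told apart.

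In the 250 bases before the annotated gene start, 4 of the 7 genes held the C-repeat core CCGAC, to which the cold-induced CBF proteins are known to bind, against 12% of the 27443 promoters searched on both strands. The 40 bases around that core are shown because they resemble each other in FLM, MAF2 and MAF3, and capitals mark the core.
FLM, chr1:28955426-28955465 (TAIR10.1, + strand), 39 bases before the gene start: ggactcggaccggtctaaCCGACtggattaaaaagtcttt
MAF2, chr5:25982094-25982133 (TAIR10.1, + strand), 142 bases before the gene start: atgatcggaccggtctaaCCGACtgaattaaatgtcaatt
MAF3, chr5:25987216-25987255 (TAIR10.1, + strand), 75 bases before the gene start: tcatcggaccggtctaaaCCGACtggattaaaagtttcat
FLC, chr5:3179474-3179513 (TAIR10.1, - strand), 47 bases before the gene start: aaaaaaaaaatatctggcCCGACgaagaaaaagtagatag

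FLM and MAF2 shared a run of 21 bases there, tcggaccggtctaaCCGACtg, and MAF2 and MAF3 shared 15 bases, atcggaccggtctaa. The evening element AAAATATCT, a motif of clock-controlled genes, occurred before FLC and MAF5, against 2.36% of promoters. These matches are a description of the letters only.

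Per kilobase of transcript, SVP was the highest of the 7 genes in Col-0, with a mean of 87.0 CPM per kb over the 6 groups, followed by FLM at 29.6, MAF2 at 19.1, MAF3 at 10.0, MAF5 at 4.96, FLC at 3.34 and MAF4 at 2.15 CPM per kb. In N14 the order began with FLC at 125 CPM per kb, ahead of SVP at 95.6, FLM at 31.0, MAF2 at 24.0, MAF3 at 16.7, MAF5 at 1.10 and MAF4 at 0.135 CPM per kb. The order of group means in N14 was the same in all 6 conditions. In Col-0 it was the same too, except that FLC at 5.35 ± 1.75 and MAF5 at 5.05 ± 0.43 CPM per kb changed places in the 28-day controls, where they differed by less than their spread. FLC thus ranked near the bottom of these genes in Col-0 and at the top in N14.

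**Figure D1:**
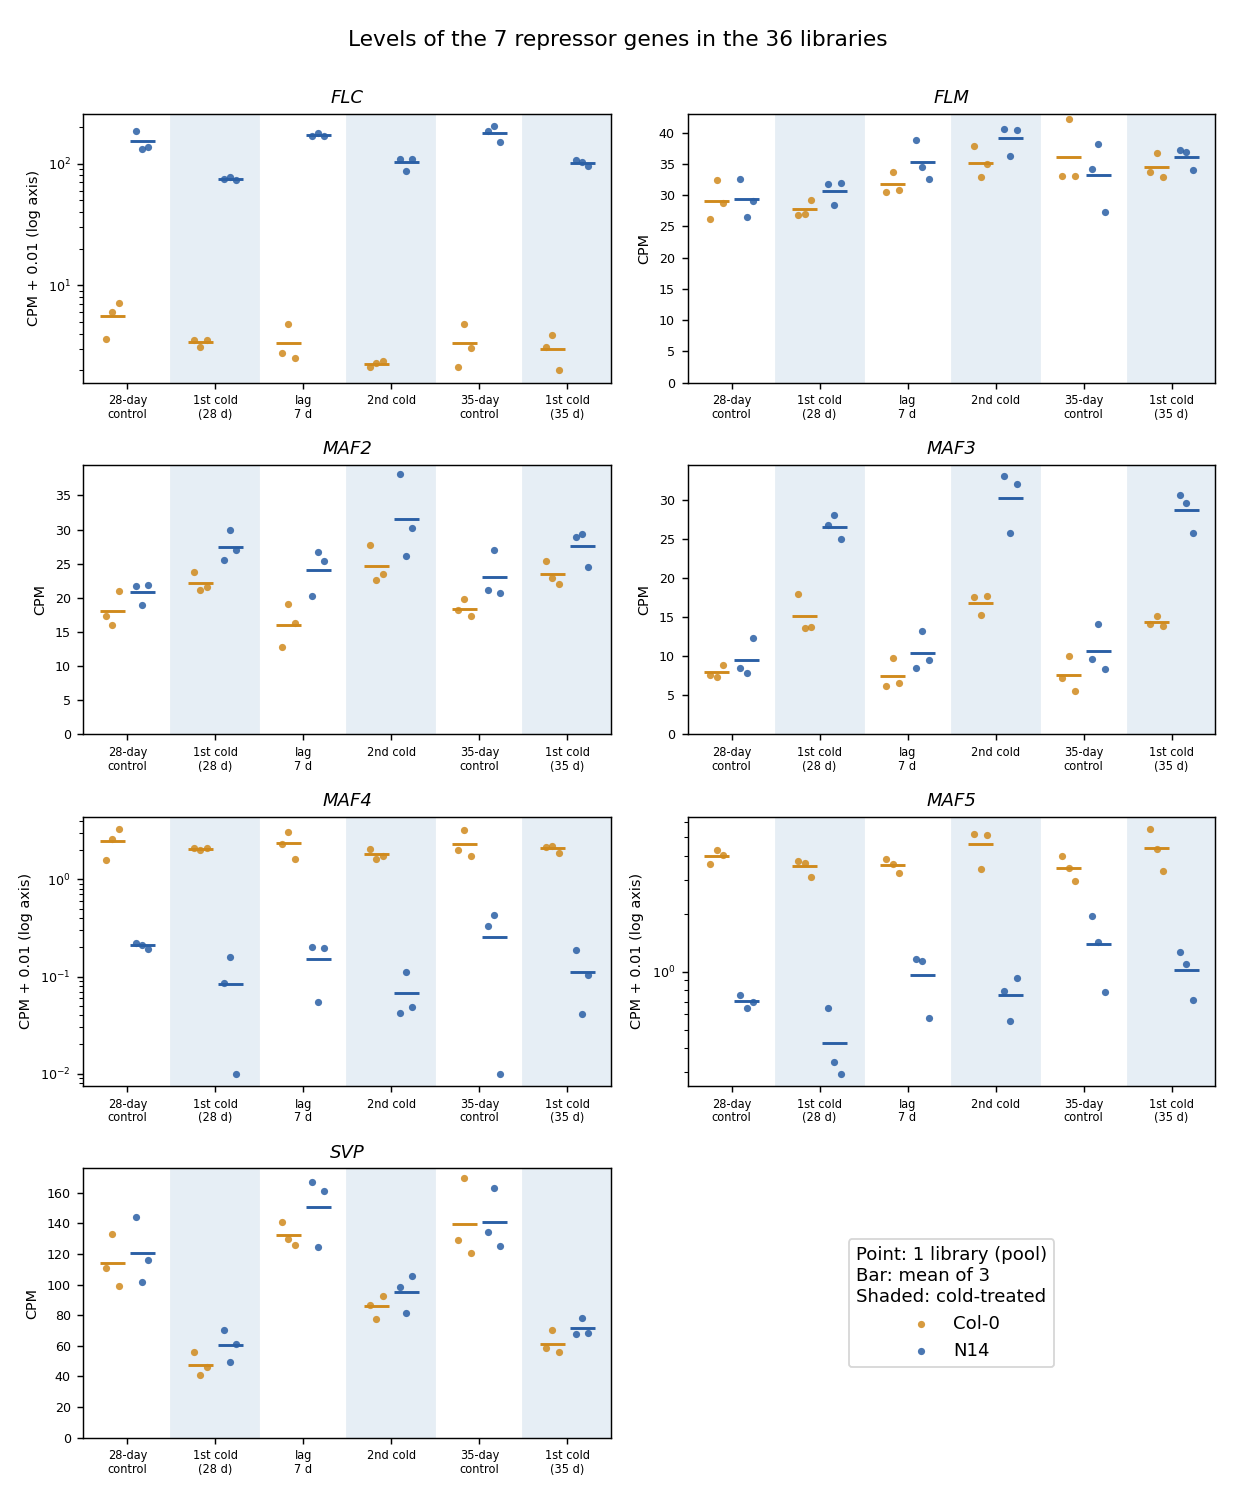
Levels of the 7 genes in every library, in CPM (y axis; log scale of CPM + 0.01 for FLC, MAF4 and MAF5, linear for the others), by condition (x axis) and accession. Points are libraries, bars the mean of 3 and shading marks cold-treated groups: FLC separates N14 from Col-0 in every condition, MAF4 and MAF5 separate them the other way, and MAF3 rises and SVP falls in each shaded group.

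FLC was far higher in N14 than in Col-0 in every condition. In the 28-day controls it stood at 187, 133 and 137 CPM in N14 (152 ± 29.97) and at 3.58, 5.98 and 7.15 CPM in Col-0 (5.57 ± 1.82). In the 35-day controls it stood at 184, 205 and 151 CPM in N14 (179.9 ± 27.0) and at 2.13, 4.81 and 3.02 CPM in Col-0 (3.32 ± 1.36). The lowest of the 18 N14 libraries, at 72.7 CPM, lay above the highest of the 18 Col-0 libraries, at 7.15 CPM. The fold was 27.3 in 28-day controls (log2 4.77 ± 0.28, edgeR adjusted p = 9.3e-14) and 54.4 in 35-day controls (log2 5.77 ± 0.29, edgeR adjusted p = 4.2e-15). It was 22.2 after the first cold at 28 days, 51.0 after the lag, 45.6 after the second cold and 34.0 after the first cold at 35 days. In the tables of the other 6 counting methods the log2 difference in 28-day controls ran from 4.71 to 4.81.

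MAF4 and MAF5 went the other way. MAF4 had 31 to 76 reads in each Col-0 library and 0 to 7 reads in each N14 library. In 28-day controls these were 1.58, 2.57 and 3.28 CPM in Col-0 (2.47 ± 0.853) and 4, 5 and 4 reads in N14. No N14 library reached the lowest Col-0 library in any condition. The fitted difference ran from -4.84 to -3.27 on the log2 scale over the 6 conditions and was called in all 6, with sizes that rest on a few N14 reads and moved by over 1.5-fold when single N14 libraries were left out, for example to -5.62 after the first cold at 28 days without experiment 2. In the other tables the 28-day difference ran from -3.86 to -3.43.

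MAF5, known from other work to rise during vernalization, had 63 to 159 reads in each Col-0 library and 8 to 42 in each N14 library. In 28-day controls it stood at 3.62, 4.30 and 4.05 CPM in Col-0 and at 0.743, 0.640 and 0.690 CPM in N14, a log2 difference of -2.52 ± 0.31. In 35-day controls it stood at 3.99, 3.43 and 2.94 CPM in Col-0 and at 1.95, 1.42 and 0.773 CPM in N14, a log2 difference of -1.33. The accessions did not overlap in either, and over the 6 conditions N14 was between 2.51-fold and 8.36-fold lower, called in each. The calls of MAF4 and MAF5 in 35-day controls ended when the fit held the compared groups only, at edgeR adjusted p = 0.063 and 0.10.

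MAF2 and MAF3 differed less between the accessions, and FLM and SVP were not called. MAF3 was higher in N14 in the 3 cold-treated conditions, by log2 0.81 ± 0.21 after the first cold at 28 days (edgeR adjusted p = 0.0074), 0.85 after the second cold (edgeR adjusted p = 0.0044) and 0.99 after the first cold at 35 days (edgeR adjusted p = 0.00096). In the 3 warm conditions its differences were 0.25, 0.47 and 0.49, none called, though without experiment 2 of the Col-0 group those after the lag (0.71) and at 35 days (0.73) were. MAF2 was called after the lag, at 0.58 ± 0.15 (edgeR adjusted p = 0.0079), and this call ended without Col-0 experiment 1 (0.44, adjusted p = 0.065). It also ended when the fit held the compared groups only (0.53, edgeR adjusted p = 0.16). FLM differed by -0.12 to 0.15 and SVP by 0.01 to 0.34, with 0 of 12 comparisons called by edgeR. In all, 22 of 42 comparisons between accessions were called, 10 higher and 12 lower in N14, against 13.5% of all tests in these comparisons. By condition these were 3 of 7 genes in 28-day controls (12.3% of all genes), 4 after the first cold at 28 days (11.1%), 4 after the lag (15.7%), 4 after the second cold (14.0%), 3 in 35-day controls (14.0%) and 4 after the first cold at 35 days (14.1%).

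**Figure D2:**
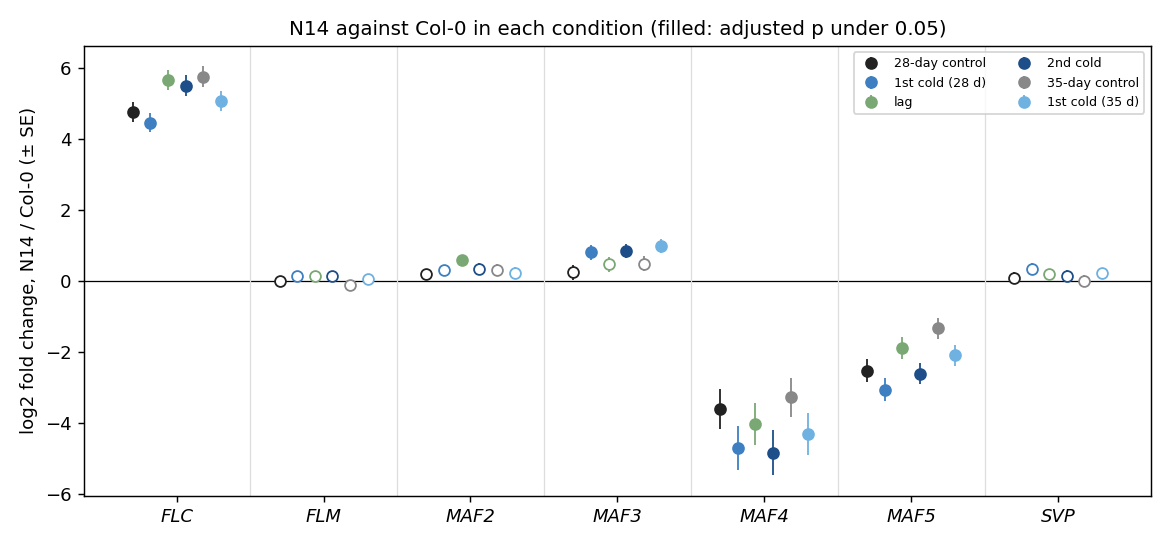
Log2 fold change of N14 against Col-0 (y axis) ± SE for each of the 7 genes in the 6 conditions (x axis); filled points had an edgeR adjusted p under 0.05. FLC lies between 4.47 and 5.77, MAF4 and MAF5 lie below 0 throughout, and FLM and SVP lie near 0 with open points.

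FLC was lower in N14 at the end of each cold period. Over the 9 N14 libraries at the end of cold FLC lay between 72.7 and 110 CPM, with a median of 95.6, and over the 9 N14 control and lag libraries between 133 and 205 CPM, with a median of 168. These ranges did not overlap. At 28 days FLC went from 187, 133 and 137 CPM to 75.1, 76.9 and 72.7 CPM, 2.03-fold lower (log2 -1.02 ± 0.23, edgeR adjusted p = 0.00055). At 35 days it went from 184, 205 and 151 CPM to 108, 103 and 95.6 CPM, 1.76-fold lower (log2 -0.82 ± 0.23, edgeR adjusted p = 0.0043). The second cold took it from 168, 179 and 168 CPM to 110, 87.3 and 109 CPM, 1.68-fold lower (log2 -0.75 ± 0.23, edgeR adjusted p = 0.0099). That last call ended without N14 experiment 2 of the second cold (-0.65, adjusted p = 0.055) and with scaling by library size alone (-0.53, adjusted p = 0.053).

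In Col-0, where FLC had 48 to 166 reads per library, the fall was called once. At the first cold at 28 days FLC went from 3.58, 5.98 and 7.15 CPM to 3.54, 3.09 and 3.52 CPM, a log2 change of -0.72 ± 0.26 (edgeR adjusted p = 0.019). Experiment 1 was level, and the fall was in experiments 2 and 3, with log2 changes of -0.02, -0.93 and -1.004 within the experiments. The call ended without experiment 2 or 3 of the controls (-0.66, adjusted p = 0.059; -0.50, adjusted p = 0.14), without experiment 2 of the cold group (-0.66, adjusted p = 0.069) and with library size alone (-0.53, adjusted p = 0.066). At 35 days FLC stood at 2.13, 4.81 and 3.02 CPM before and 3.12, 3.89 and 1.98 CPM after cold, overlapping groups with a change of -0.14 (95% interval -0.68 to 0.40). At the second cold it went from 2.76, 4.82 and 2.48 CPM to 2.095, 2.26 and 2.35 CPM, groups that did not overlap, with a change of -0.59 ± 0.27 (edgeR adjusted p = 0.082). DESeq2 called this last change, at -0.64 (adjusted p = 0.045), as did edgeR without experiment 3 of the lag (-0.76, adjusted p = 0.043). The difference of the accessions in FLC's cold change was not called for any of the 3 colds, at -0.30, -0.68 ± 0.35 and -0.16.

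SVP fell in all 6 cold comparisons. In Col-0 at 28 days it went from 111, 133 and 98.8 CPM (114 ± 17.3) to 56.0, 40.8 and 46.1 CPM (47.6 ± 7.71), and in N14 from 144, 102 and 116 CPM (120.5 ± 21.4) to 70.3, 49.5 and 60.9 CPM (60.2 ± 10.4). Neither pair of groups overlapped. The folds were 2.39 lower in Col-0 (log2 -1.26 ± 0.17, edgeR adjusted p = 5.5e-07) and 2.00 lower in N14 (log2 -1.0 ± 0.17, edgeR adjusted p = 1.3e-05). At 35 days the changes were -1.18 in Col-0 and -0.98 in N14, from 129, 169 and 120 CPM to 58.4, 70.1 and 55.8 CPM and from 134, 163 and 125 CPM to 67.7, 78.1 and 68.2 CPM. The second cold changed it by -0.63 ± 0.17 in Col-0 (edgeR adjusted p = 0.0035), to 86.9, 77.4 and 92.8 CPM, and by -0.66 ± 0.17 in N14 (edgeR adjusted p = 0.0018), to 98.4, 81.4 and 106 CPM. SVP was the single member called lower in all 6 cold comparisons.

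MAF3 rose in all 6 cold comparisons. Over 9 libraries each, it lay between 13.6 and 17.9 CPM in cold and between 5.61 and 9.99 CPM in warm Col-0, and between 25.0 and 33.1 CPM in cold and between 7.84 and 14.1 CPM in warm N14. Neither accession overlapped. At 28 days it went from 7.66, 7.40 and 8.88 CPM to 17.9, 13.6 and 13.8 CPM in Col-0, 1.89-fold higher (log2 0.92 ± 0.21, edgeR adjusted p = 0.00061). In N14 it went from 8.44, 7.84 and 12.3 CPM to 26.7, 28.0 and 25.0 CPM, 2.79-fold higher (log2 1.48 ± 0.21, edgeR adjusted p = 1.4e-06). The later colds gave 0.93 at 35 days and 1.16 at the second cold in Col-0, and 1.43 and 1.54 in N14. The change in N14 minus that in Col-0 was 0.56 ± 0.30 at 28 days (edgeR adjusted p = 0.77), 0.50 at 35 days and 0.38 at the second cold, none called.

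MAF2, known from mutants to hold back flowering after short cold, moved in the same direction by less. In Col-0 at the second cold it went from 12.8, 19.1 and 16.3 CPM to 27.8, 22.7 and 23.5 CPM (log2 0.62 ± 0.15, edgeR adjusted p = 0.0019), groups that did not overlap. In N14 at the first cold at 28 days it went from 21.7, 19.0 and 21.8 CPM to 25.5, 29.98 and 27.0 CPM (log2 0.40 ± 0.15, edgeR adjusted p = 0.026), and at the second cold it changed by 0.39 ± 0.15 (edgeR adjusted p = 0.037) with overlapping groups. Both N14 calls ended when some single libraries were left out, for example at 0.34 (adjusted p = 0.097) without experiment 2 of the 28-day controls and 0.23 (adjusted p = 0.27) without experiment 1 of the second cold. They also ended when the fit held the compared groups only, at 0.41 (edgeR adjusted p = 0.059) and 0.42 (edgeR adjusted p = 0.089). The first cold gave 0.29 at 28 days and 0.35 at 35 days in Col-0 and 0.26 at 35 days in N14, none called with the STAR counts scaled by TMM. With scaling by library size alone all of these were called, at 0.47, 0.48 and 0.51. The 28-day change in Col-0 was also called with the BWA and RSEM tables, at 0.39 and 0.38, and without experiment 3 of the controls, at 0.41. The N14 change was called without experiment 2 of the controls, at 0.40. The 35-day change in Col-0 was called with each of the 6 other tables, at 0.36 to 0.41.

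FLM, MAF4 and MAF5 were not called in any of the 6 cold comparisons. FLM is known for splice forms that shift with temperature, which counts per gene do not separate. It lay between 26.2 and 42.2 CPM in Col-0 and between 26.5 and 40.6 CPM in N14, with cold changes of -0.07 to 0.15. With scaling by library size alone its 3 cold changes in N14 were called, at 0.35, 0.36 and 0.37, a scaling under which the median of all genes shifted by 0.13 to 0.27 in the cold comparisons. MAF5 in N14 went from 0.743, 0.640 and 0.690 CPM to 0.637, 0.331 and 0.285 CPM at the first cold at 28 days, without overlap, a change of -0.72 that was called with the experiment as a block (-0.75, edgeR adjusted p = 0.045) and without experiment 1 of the cold group (-1.15, edgeR adjusted p = 0.018). MAF4 in N14 went from 4, 5 and 4 reads to 2, 4 and 0 reads.

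Over the 6 cold comparisons 19 of 42 values were called, 9 higher and 10 lower, which was 45.2% against 50.7% of all tests, a share near that of all genes. By comparison, 3 of 7 genes were called at 28 days in Col-0 (54.7% of all genes), 4 in N14 (56.8%), 2 at 35 days in Col-0 (51.8%), 3 in N14 (54.0%), 3 at the second cold in Col-0 (40.2%) and 4 in N14 (46.6%). No called value changed sign under any scaling or counting method tried.

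**Figure D3:**
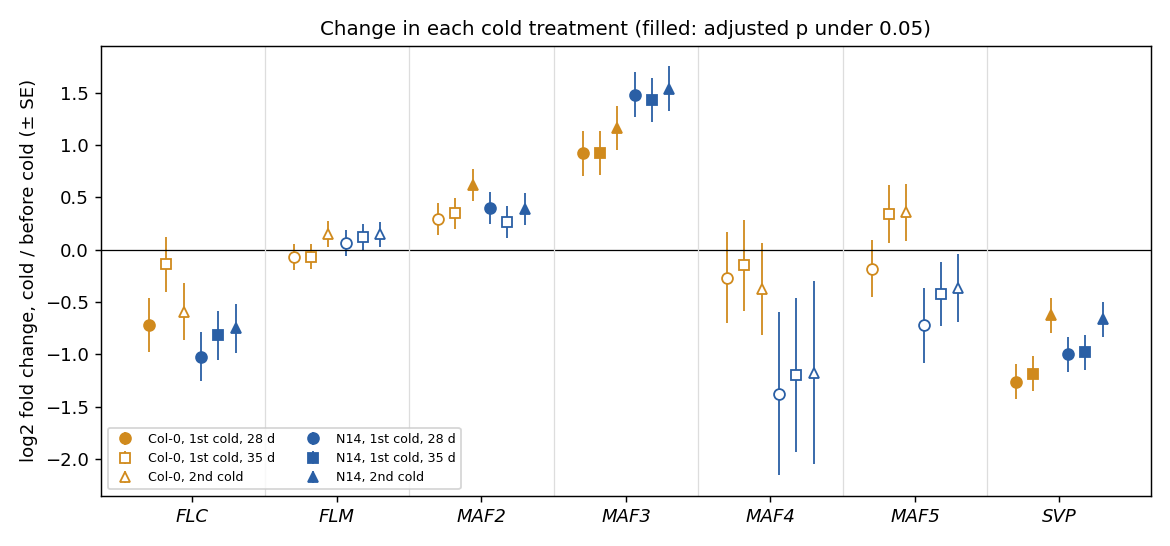
Log2 fold change in cold against the matching warm group (y axis) ± SE for each of the 7 genes in the 6 cold comparisons (x axis); filled points had an edgeR adjusted p under 0.05. SVP is below 0 and MAF3 above 0 with filled points throughout, while FLC is filled in all 3 N14 comparisons and in 1 of 3 in Col-0.

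After 7 days back at 20 °C, SVP, MAF3 and, in N14, FLC had moved back towards their levels before cold. FLC in N14 rose from 75.1, 76.9 and 72.7 CPM at the end of cold to 168, 179 and 168 CPM, 2.29-fold (log2 1.196 ± 0.24, edgeR adjusted p = 9.7e-05), with nearly equal changes of 1.16, 1.22 and 1.21 within the 3 experiments. FLC in Col-0 went from 3.54, 3.09 and 3.52 CPM to 2.76, 4.82 and 2.48 CPM, overlapping groups with a change of -0.01 ± 0.26. The difference of these changes between accessions, 1.202 ± 0.35, had an unadjusted p of 0.002 and was not called over all genes (edgeR adjusted p = 0.16). SVP rose 2.78-fold in Col-0, to 141, 130 and 126 CPM (edgeR adjusted p = 4.2e-08), and 2.504-fold in N14, to 167, 125 and 161 CPM (edgeR adjusted p = 2.2e-07). MAF3 fell by 1.01 in Col-0, to 6.19, 9.78 and 6.57 CPM, and by 1.35 in N14, to 8.44, 13.2 and 9.58 CPM. MAF2 fell by 0.46 in Col-0 (edgeR adjusted p = 0.011), a call that ended without experiment 1 of the lag (-0.33, adjusted p = 0.091). That call also ended when the fit held the compared groups only (-0.44, edgeR adjusted p = 0.056). MAF5 rose in N14 by 1.21 ± 0.35 (edgeR adjusted p = 0.0042), with overlapping groups, a call that ended when the fit held those groups alone (1.19, adjusted p = 0.056). This made 3 of 7 genes called in Col-0 (56.4% of all genes) and 4 in N14 (57.7%).

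Against controls of 35 days, plants after the lag showed 0 called members in Col-0 (0% of all genes) and 0 in N14 (0%) by edgeR, none at an unadjusted p under 0.05 and none by DESeq2. Over all genes, 670 in Col-0 and 919 in N14 had an unadjusted p under 0.05, and DESeq2 called 4 and 49. FLC differed by 0.03 in Col-0 (95% interval -0.52 to 0.57) and by -0.07 in N14 (95% interval -0.54 to 0.41). With 3 libraries a group, the values do not separate FLC differences within these intervals from no difference. The intervals are no limit of detection, since a call also had to pass the adjustment over all genes. SVP differed by -0.08 and 0.10 and MAF3 by -0.01 and -0.03. Plants after the lag were 3 days older than these controls.

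After the second cold, compared with the 35-day controls that had never been cold, 3 of 7 genes were called in Col-0 (47.0% of all genes) and 6 in N14 (50.9%). Plants of the second cold had 28 days of growth, 3 of cold, 7 of lag and 3 of cold. They were thus older than the 35-day controls, and the part of this age gap was not tested. MAF3 was higher by 1.15 in Col-0 and 1.51 in N14, MAF2 by 0.42 and 0.46, and SVP was lower, with -0.71 and -0.56. In N14 FLC (-0.82, edgeR adjusted p = 0.0049), MAF5 (-0.88 ± 0.32, edgeR adjusted p = 0.022) and MAF4 (-1.92 ± 0.79, edgeR adjusted p = 0.044) were lower too. FLC in Col-0 was at -0.56 (edgeR adjusted p = 0.084), called by DESeq2 (-0.61, adjusted p = 0.049) and without experiment 1 of the Col-0 controls (-0.81, adjusted p = 0.019), and the accessions' difference in FLC was not called (-0.25 ± 0.36, edgeR adjusted p = 0.99). The N14 calls of MAF5 and MAF4 depended on the libraries and processing used. In the 35-day N14 controls MAF4 had 7, 7 and 0 reads and MAF5 1.95, 1.42 and 0.773 CPM. Without experiment 1 of those controls MAF5 differed by -0.53, and without experiment 2 MAF4 differed by -1.37, neither called. Leaving out some libraries of the second cold ended both calls as well. The MAF4 call also ended with the TopHat, BWA, CLC and RSEM counts (edgeR adjusted p = 0.056 to 0.083), without the filter (0.062) and with library size alone (0.076). The MAF5 call also ended with the kallisto counts (edgeR adjusted p = 0.051), library size alone (0.11) and the compared groups only (0.14). The N14 call of SVP ended with library size alone, at -0.31, and without experiment 2 of the controls, at -0.44. The MAF2 calls ended in both accessions without experiment 1 of the second cold, at 0.32 and 0.30. They also ended when the fit held the compared groups only, at 0.41 and 0.48. Together with the lag, 16 of 42 values in these 6 comparisons were called, against 35.3% of all tests.

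The second cold was also set against the first cold at 35 days, which asks whether an earlier cold changes the level at the end of a later one. Plants of the second cold were 3 days older. By edgeR 0 of 7 members were called in Col-0 (0% of all genes) and 0 of 7 in N14 (0.00494%), which over both is 0 of 14 (0.00247%). DESeq2 called 0 too. Over all 20263 genes, 937 in Col-0 and 1765 in N14 had an unadjusted p under 0.05. Among the members 2 of the 14 values did, both for SVP. It stood at 86.9, 77.4 and 92.8 CPM after the second and 58.4, 70.1 and 55.8 CPM after the first cold in Col-0, and at 98.4, 81.4 and 106 CPM against 67.7, 78.1 and 68.2 CPM in N14. The groups did not overlap in either accession. The differences were 0.48 ± 0.17 (unadjusted p = 0.0075, edgeR adjusted p = 0.77) and 0.41 ± 0.17 (edgeR adjusted p = 0.38). FLC in N14 was at the same mean, 102.0 CPM, after both colds.

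With age, from 28 to 35 days without cold, 0 of 7 members were called by edgeR in Col-0 (3.41% of all genes) and 0 of 7 in N14 (0.0197%), which over both is 0 of 14 (1.71%). DESeq2 called 0 as well, and 3 of the 14 had an unadjusted p under 0.05, 2 in Col-0 and 1 in N14. Over all 20263 genes, 4212 in Col-0 and 1875 in N14 had an unadjusted p under 0.05. FLC in Col-0 went from 3.58, 5.98 and 7.15 CPM to 2.13, 4.81 and 3.02 CPM, lower in each of the 3 experiments with overlapping groups (-0.75 ± 0.26, edgeR adjusted p = 0.095). With scaling by library size alone that change was called (-0.84, adjusted p = 0.047). FLC in N14 changed by 0.24 ± 0.23. The difference between the accessions, 0.99 ± 0.35, had an unadjusted p of 0.0078 and an edgeR adjusted p of 1. MAF5 in N14 went from 0.743, 0.640 and 0.690 CPM to 1.95, 1.42 and 0.773 CPM (0.99 ± 0.33, edgeR adjusted p = 0.23), and was called without experiment 3 of the 35-day controls (1.29, adjusted p = 0.036). Over the same interval all 8 floral markers tested rose in Col-0 and 0 were called in N14, and the part of floral tissue in the Col-0 values was not tested.

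Differences between the accessions in any response were tested for all 7 genes in 8 comparisons. By edgeR 0 of 56 were called, against 0.187% of all tests, 5 had an unadjusted p under 0.05, and DESeq2 called 0. Over all 20263 genes, 218 to 1785 had an unadjusted p under 0.05 in each of these comparisons. The second cold against the 35-day control gave MAF5 a difference of -1.28 ± 0.42 (edgeR adjusted p = 0.24) and MAF4 the widest of the 56, -1.57 ± 0.90 (edgeR adjusted p = 0.73), on few N14 reads.

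Across the 18 libraries of an accession, the log2 levels of the genes moved together in part. FLC and SVP had a Pearson r of 0.93 in N14 and 0.23 in Col-0. MAF2 and MAF3 had 0.89 in Col-0 and 0.83 in N14, and MAF3 ran against SVP, with -0.71 in Col-0 and -0.76 in N14. In Col-0 FLC went most with MAF4, at 0.76. These libraries share the cold and warm groups and the experiments, so the values only describe how the levels lie. Among tested genes above a minimum mean log2 CPM, the gene most like MAF2 over 36 libraries by Pearson's r was MAF3 (r = 0.869). By Spearman's rho it was AT5G28220 (rho = 0.906). By Pearson's r the 3 genes most like SVP were NCED4 (0.963), BBX15 (0.957) and AT4G14270 (0.955). For MAF3 they were UXS5 (0.947), PNT1 (0.945) and AT1G65270 (0.937), and for FLC AT2G36540 (0.984), AT4G32230 (0.979) and AT1G03106 (0.979). By Spearman's rho all 3 were other genes for SVP, led by AT3G18295 (0.960), and for FLC, led by AT1G62290 (0.931). For MAF3 only UXS5 stayed among the 3, behind CIPK25 (0.932). Within the 18 N14 libraries the gene most like FLC was AT2G47710 by Pearson's r (0.989), and AT4G09830 and AT4G14615 by Spearman's rho (0.986 each).

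The regulators of FLC were read from lists of known pathway genes, and most of their called members rose in cold. In the 6 cold comparisons 40.2% to 56.8% of all genes were called, 21.6% to 27.6% higher and 18.7% to 29.2% lower, which is the background for the counts below. VIN3, the cold-induced PHD-finger protein that starts FLC silencing, had at most 3 reads in any warm library and 6 to 32 reads in each cold library, and was called higher in all 6 cold comparisons. At the second cold in Col-0 it stood at 0.229, 0.428 and 1.34 CPM, the widest spread of the cold groups. CLF, a Polycomb histone methyltransferase that silences FLC, rose from 8.98 ± 1.59 to 28.2 ± 0.568 CPM at 28 days in Col-0, with changes between 1.06 and 1.83 over the 6 comparisons. Of the 10 vernalization and Polycomb genes, 5 to 8 rose and 0 to 1 fell in each cold comparison, which over all 6 is 71.7% of 60 tests called, with medians of 0.32 to 0.63 against -0.08 to 0.00 over all genes. After the lag, 8 of these 10 fell against the end of cold in each accession, where 27.8% to 28.2% of all genes fell.

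Genes known to lower FLC and genes known to raise it were both among those that rose. Their shares called in either direction were near the 50.7% of all tests, but nearly all of these calls were rises. The autonomous list had 24 calls higher and 0 lower, and the FRI list 32 higher and 1 lower. Over all tests 25% were called higher and 25.7% lower. Of the 7 autonomous pathway genes, which lower FLC, 3 to 5 rose and 0 fell in each cold comparison, 57.1% of 42 tests, with medians of 0.41 to 0.81. FVE, a chromatin protein of that pathway, went from 34.8 to 67.7 CPM in Col-0 and from 37.9 to 78.6 CPM in N14 at 28 days, and FY, an RNA 3′-end processing factor, rose by 0.93 to 1.31. Of the 10 genes of the FRI complex and other activators of FLC, 4 to 6 rose and 0 to 1 fell, 55.0% of 60 tests called, with medians of 0.31 to 0.50. Among them ATX1, a histone methyltransferase, rose by 0.59 to 1.54, ELF7, a subunit of the PAF1 complex, by 0.65 to 1.11, and SUF4, a zinc finger protein that acts with FRI, by 0.52 to 0.77. FRI itself rose in N14, by 0.45, 0.46 and 0.52, and stood at 0.09, 0.06 and 0.12 in Col-0, not called. The difference between the accessions was not called for FRI in any of the 3 colds, at 0.36, 0.39 and 0.40 (edgeR adjusted p = 0.80, 0.66 and 0.64). VRN1, a DNA-binding protein needed for stable silencing of FLC, fell in N14, with -0.66, -0.49 and -0.56, and stood at -0.13, -0.27 and -0.11 in Col-0, not called. The differences, -0.53, -0.23 and -0.46, were not called either (edgeR adjusted p = 0.35, 0.86 and 0.48). Between the accessions the FRI list gave 4 calls in 60 tests and the vernalization list 4 in 60, all higher in N14, or 6.67% each against 13.5% of all tests. FRI itself was called higher in N14 in 3 of the 6 conditions, by log2 0.44 to 0.60. VRN1 was called higher in N14 in 3 as well, by 0.42 to 0.56, and FRL1 and VRN2 in 1 each. The autonomous list gave 0 in 42 by edgeR, with 1 at an unadjusted p under 0.05. Over all 20263 genes, 4331 to 5524 had such an unadjusted p in each comparison of the accessions.

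Of the direct targets and other floral integrators, SOC1 and FT were called lower in N14 in all 6 conditions, TSF and SPL15 in 5, FD in 3 and AGL24 in 1. TEM1 and TEM2, the remaining genes of this list, were not called between the accessions. SOC1, a MADS-box inducer of flowering that FLC and SVP repress, stood in the 28-day controls at 59.3, 76.1 and 49.9 CPM in Col-0 and at 3.56, 3.44 and 4.28 CPM in N14, and in the 35-day controls at 116, 157 and 80.4 CPM in Col-0 and at 8.21, 12.1 and 1.46 CPM in N14. The accessions did not overlap in either, and the log2 differences were -4.04 in both. After the lag it was -3.65, and after the first cold at 28 days, the second cold and the first cold at 35 days it was -2.35, -2.42 and -2.25, all called. In Col-0 SOC1 fell at the first cold, to 19.3, 25.3 and 23.8 CPM at 28 days (-1.44) and 57.6, 61.9 and 56.9 CPM at 35 days (-1.0), and in N14 its cold changes of 0.25, 0.79 and 0.59 were not called. The accessions' difference in the change was 1.69 ± 0.51, 1.79 ± 0.50 and 1.23 ± 0.49 for the first cold at 28 and 35 days and the second cold, not called (edgeR adjusted p = 0.22, 0.14 and 0.44). FT, the mobile flowering signal, had 19 to 192 reads in each Col-0 library and 0 to 2 reads in each N14 library, with 0 in 15 of the 18, so no fold is given. FUL, a MADS-box gene of the floral transition, was lower in N14 by 2.29 to 3.83 on the log2 scale. Of the 8 targets and integrators tested, 3 to 5 were lower and 0 higher in N14 in each condition, 54.2% of 48 tests called against 13.5% of all tests, with medians of the fitted differences from -2.90 to -1.33. With genes that had no N14 reads set to a floor of 3 reads per library, the median was -0.88 in 28-day controls and -1.59 in 35-day controls. The floral marker sums given above differed in the same direction, and their part was not tested. Of the 3 photoperiod genes, 2 to 3 rose in each cold comparison.

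**Figure D4:**
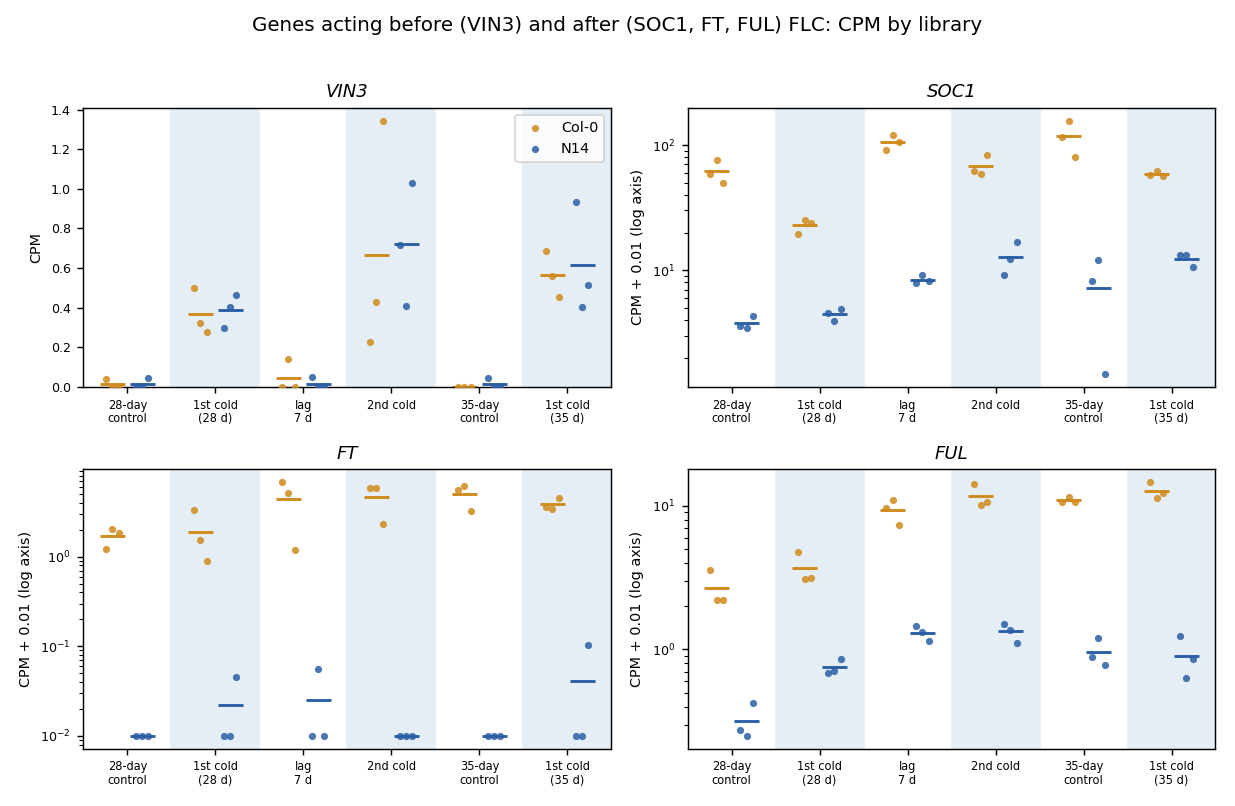
Levels by library in CPM (y axis; linear for VIN3, log scale of CPM + 0.01 for SOC1, FT and FUL), by condition (x axis) and accession, with bars at the mean of 3. VIN3 has at most 3 reads in any warm library, and SOC1, FT and FUL are lower in N14 in every condition.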

How the data were processed

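The 7 tables of reads per gene covering all 36 libraries were used as deposited by the authors. The STAR, TopHat, BWA and CLC tables hold whole-number counts, and the kallisto, RSEM and Salmon tables hold expected counts as deposited by the authors, which were rounded to whole numbers. The BWA table repeats its values, and the first set was read. Reads were assigned to TAIR10 with STAR 2.5.2a and the other tools, per the submitters' processing notes. PolyA-enriched libraries were made with a directional kit, and genomic DNA had been checked for with primers in an intron of MAF5, per the labels' protocols.

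Tests on the STAR counts were run in edgeR 4.0.16 (R 4.3.3): filterByExpr by group, TMM scaling and a quasi-likelihood fit of 12 group means over all 36 libraries, with Benjamini-Hochberg adjustment over the 20263 genes of each comparison. The SE was taken from the change and its F statistic, as change over root F. Log2 CPM for likeness used a prior count of 2. On simulated counts for the first cold at 28 days in Col-0 (19781 genes), 48% of genes changed 2-fold and 100% of those changed 4-fold were recovered. There were 13 false calls among the unchanged genes. The simulation gave all genes the same spread and changed 100 at each fold, far fewer than were called in the real comparison. No replicate libraries agreed within sampling noise (chi-square per gene from 8.52 to 106). CPM per kb used the length of the transcript with the longest protein. Sequences, gene starts and lengths came from the TAIR10.1 reference (RefSeq), looked up by locus identifier, since the tables hold no coordinates.

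Titles number the libraries 1 to 3, and the labels' protocols say that pools were made separately for 3 independent experiments. Equal numbers were therefore taken as paired for changes within experiments and in the replicate block, while the main fit held no term for experiment. Deviations of same-numbered libraries from their group means correlated at -0.36 to 0.65, over 0.1 in 39 of 66 pairs. Between accessions they ran from 0.07 to 0.65, and within an accession from -0.36 to 0.46. Alternatives were DESeq2 1.42.0, other scalings, no filter, the other 6 tables, the replicate block, fits to the compared groups alone and leaving out each library. The 7 genes and the lists (FRI complex and activators, vernalization and Polycomb, autonomous pathway, targets and integrators, photoperiod, and leaf, floral and root markers) were chosen with earlier results of these data known, so no count over a list is independent evidence. From a list, up to 4 called genes with the largest changes in a comparison were named. FRI, VRN1, FUL and the spread of VIN3 were also given outside that rule, after their values were seen.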

Additional observations from a re-analysis of the deposited data

How the results depend on the processing

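Of 210 changes of the 7 genes tested, 57 were called. Under every alternative 43 stayed called, 14 were lost and 17 others gained in at least 1, and no called change reversed its sign. The count over lag and second cold, 16, fell to 10 when only the compared groups were fitted, which uses fewer libraries and dropped MAF4 at the filter within N14. The count with age, 0, became 1 with scaling by library size alone, FLC in Col-0. Leaving out single libraries gave 18 to 21 calls in cold (19 in the full fit), 13 to 16 after lag and second cold (16), 0 to 0 between second and first cold (0), 0 to 1 with age (0), 21 to 23 between accessions (22) and 0 to 1 for differences of responses (0). With the replicate block these counts were 20, 16, 0, 0, 22 and 0, and the pairing by experiment changed no call other than that of MAF5 in N14 at the first cold at 28 days. Other causes of these shifts were not tested. Fold sizes of MAF4 in N14 rest on 0 to 7 reads per library: without single libraries its difference from Col-0 was -5.49 after the second cold, -2.63 in 35-day controls and -5.06 after the first cold at 35 days. Levels moved by over 1 SD in 19 of 84 group means with the RSEM table and in 1 with TopHat.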
